A study of Mus musculus with 3 samples.

Results

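Of the 15524 Runx3 peaks called in resting splenic natural killer (NK) cells, 2449 (15.8%, 95% Wilson interval 15.2 to 16.4) had their midpoint at least 1 kb and under 5 kb from the nearest annotated transcript start. All transcripts of the GENCODE M1 annotation of the mouse genome build mm9 were used, with 86842 start positions. The chromatin came from freshly isolated NK cells of ICR mice, an outbred strain. They were enriched by negative selection and then sorted, on NKp46 according to the labels and on DX5 according to the study's methods. The 3 samples, 1 per antibody, were precipitated with an in-house polyclonal antibody to Runx3, a monoclonal antibody to H3K4me1 (a single methyl group on lysine 4 of histone H3) or non-immune rabbit serum (NIS), the control for peak calling. No genotype or treatment differed between them, and all cells were fixed with 1% formaldehyde. The data were 2 lists of coordinates, the Runx3 peaks and 49902 H3K4me1 regions. They held no score, summit or read number, so read depth and signal height at each peak could not be read. The study's methods report read totals per antibody for resting NK cells. Intervals are 95% intervals over peaks and cover counting error only, because no replicate list was at hand and peaks of 1 library are not biological replicates.

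Runx3 is a DNA-binding factor of the RUNX family that is abundant in cytotoxic lymphocytes and binds the consensus TGTGGT and its variants together with its partner Cbfb. H3K4me1 marks nucleosomes at enhancers and on the shoulders of active promoters, while nucleosomes next to an active start usually carry trimethylated H3K4 in its place. The sequence from 1 to 5 kb around a start therefore holds promoter shoulders, upstream enhancers and, on the gene side, elements of the first intron.

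The following sequences show what a Runx3 peak at this distance looked like at 10 genes of NK cell recognition, signalling and killing. Each is 61 bases of the mm9 plus strand around the RUNX match closest to the midpoint of the gene's nearest peak in this class. The capitals mark the match. It reads TGTGGT, the most common form, or the variant TGTGGC, the CpG-bearing variant TGCGGT or the further variant TGCGGC on the plus strand, or as the reverse complement where the match lies on the minus strand.
Klrb1a (chr6:128574530-128574590, 1349 bp upstream): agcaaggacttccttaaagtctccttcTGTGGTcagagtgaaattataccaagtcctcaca
Klrd1 (chr6:129548198-129548258, 1701 bp downstream): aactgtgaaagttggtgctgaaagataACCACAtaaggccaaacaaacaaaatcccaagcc
Klrb1c (chr6:128741006-128741066, 1645 bp upstream): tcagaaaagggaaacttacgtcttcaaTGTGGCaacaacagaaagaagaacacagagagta
Fcgr3 (chr1:172990660-172990720, 1116 bp upstream): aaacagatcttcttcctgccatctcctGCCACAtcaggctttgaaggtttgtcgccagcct
Fyn (chr10:39141207-39141267, 1380 bp downstream): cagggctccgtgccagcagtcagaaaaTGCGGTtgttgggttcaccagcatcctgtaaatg
Plcg1 (chr2:160581616-160581676, 1015 bp downstream): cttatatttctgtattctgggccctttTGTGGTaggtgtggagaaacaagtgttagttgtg
Csk (chr9:57494660-57494720, 1204 bp upstream): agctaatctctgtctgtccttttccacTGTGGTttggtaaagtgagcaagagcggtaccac
Ptpn6 (chr6:124680110-124680170, 1331 bp upstream): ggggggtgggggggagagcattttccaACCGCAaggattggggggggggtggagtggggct
Nkg7 (chr7:50694156-50694216, 1654 bp downstream): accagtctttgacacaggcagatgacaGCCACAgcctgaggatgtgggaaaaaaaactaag
Gzmm (chr10:79154794-79154854, 1682 bp upstream): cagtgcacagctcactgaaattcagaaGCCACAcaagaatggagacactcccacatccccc
The distances are those of the peak midpoints from the nearest start. The match lay 3 bp from the midpoint at Gzmm, -11 bp at Plcg1 and 19 bp at Klrd1, but 158 bp away at Klrb1c and 259 bp away at Klrb1a.

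Runx3 peaks lay on both sides of starts, with more of them downstream, on the gene side. There were 1103 upstream (45%, 43.1 to 47) and 1346 downstream (55%, 53 to 56.9). A census of all genome bases 1 to 5 kb from a start put 48.5% of them upstream, so the upstream share of peaks differed from the census by -3.42 points (-5.38 to -1.45). With 1 start per protein-coding gene, the difference was -9.63 points (-11.9 to -7.32). From 1 to 2 kb there were 8.53 peaks per Mb upstream (7.69 to 9.44, 373 peaks) and 10.7 per Mb downstream (9.76 to 11.7, 492 peaks). The values were 7 upstream and 8.09 downstream at 2 to 3 kb and 6.25 and 7.12 at 3 to 4 kb, with overlapping intervals within each bin. At 4 to 5 kb the values were 6.84 per Mb upstream (5.98 to 7.79) and 6.71 per Mb downstream (5.89 to 7.61), also overlapping. Among peaks at least 2 kb away the difference from the census kept its direction, at -2.27 points, with an interval that included 0 (-4.72 to 0.186).

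H3K4me1 itself was unequally spread over the same sequence. It covered 13.1% of the downstream bases and 7.83% of the upstream bases, and from 1 to 2 kb 19.8% and 11.7%. Counted per Mb of H3K4me1-marked sequence, the order of the sides was the other way round, with 87.5 peak midpoints upstream (82.3 to 93) and 59.7 downstream (56.4 to 63.1). This held in each 1-kb bin, from 69.2 against 49.9 at 1 to 2 kb to 110.8 against 76.1 at 4 to 5 kb. Outside H3K4me1 regions the density was between 0.305 and 0.976 midpoints per Mb in the 8 bins.

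**Figure D1:**
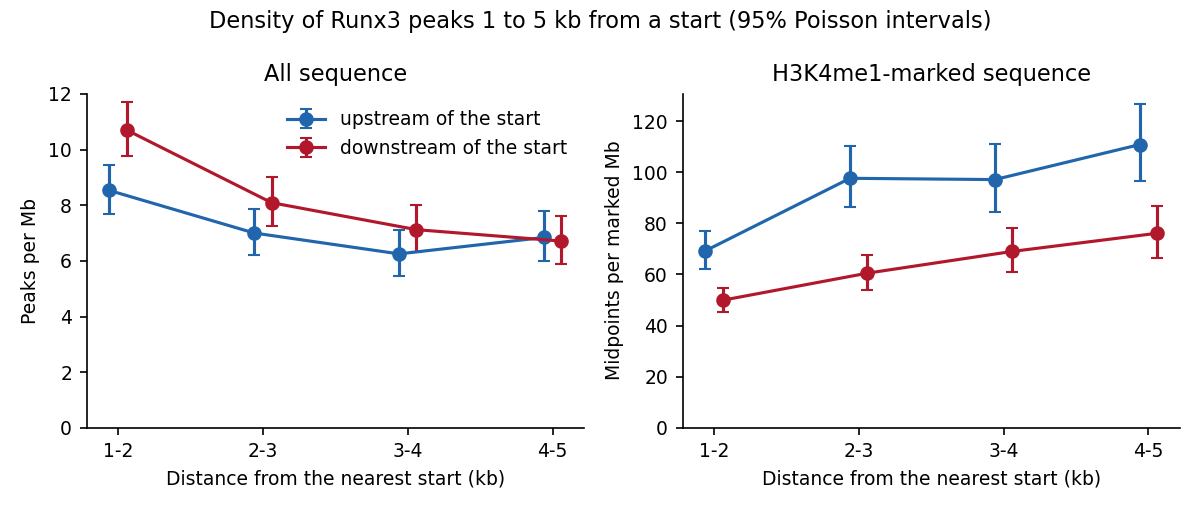
Runx3 peaks per Mb of all sequence (left) and Runx3 midpoints per Mb of H3K4me1-marked sequence (right) against distance from the nearest start in kb. Points are counts over the length of each bin, bars are exact 95% Poisson intervals, blue is upstream and red downstream. The downstream point is the higher one at 1 to 2 kb on the left (10.7 against 8.53), and the upstream point is the higher one in all 4 bins on the right.

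Nearly all of these peaks were in H3K4me1 chromatin, on either side. At least 1 bp was shared with an H3K4me1 region by 2358 of the 2449 peaks (96.3%, 95.5 to 97), beside 95.7% of all Runx3 peaks. Upstream and downstream peaks had 96.2% and 96.4% (difference -0.167 points, -1.73 to 1.33). The midpoint lay inside an H3K4me1 region in 94.5% of them, beside 83.6% of all Runx3 peaks, and in 94.8% upstream and 94.3% downstream (difference 0.553 points, -1.29 to 2.35). Peaks under 1 kb from a start had their midpoint in H3K4me1 in 66.2% of cases, 28.4 points less than the peaks at 1 to 5 kb (26.8 to 29.8). Peaks at 5 to 50 kb had 95.2%, and that difference of -0.668 points did not leave out 0 (-1.77 to 0.352).

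Going out from the start in 250 bp steps, the share of midpoints in H3K4me1 was 62.2% within 250 bp upstream and 60% within 250 bp downstream. It was 91.3% upstream and 87.4% downstream at 750 to 1000 bp. Just past 1 kb, at 1000 to 1250 bp, it was 95% upstream (88.8 to 97.8, 100 peaks) and 88.1% downstream (82.2 to 92.3, 160 peaks), and beyond that every bin on both sides lay between 91.8% and 98.4%. The 1 kb limit of the class thus fell at the outer end of the dip in H3K4me1 around starts.

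**Figure D2:**
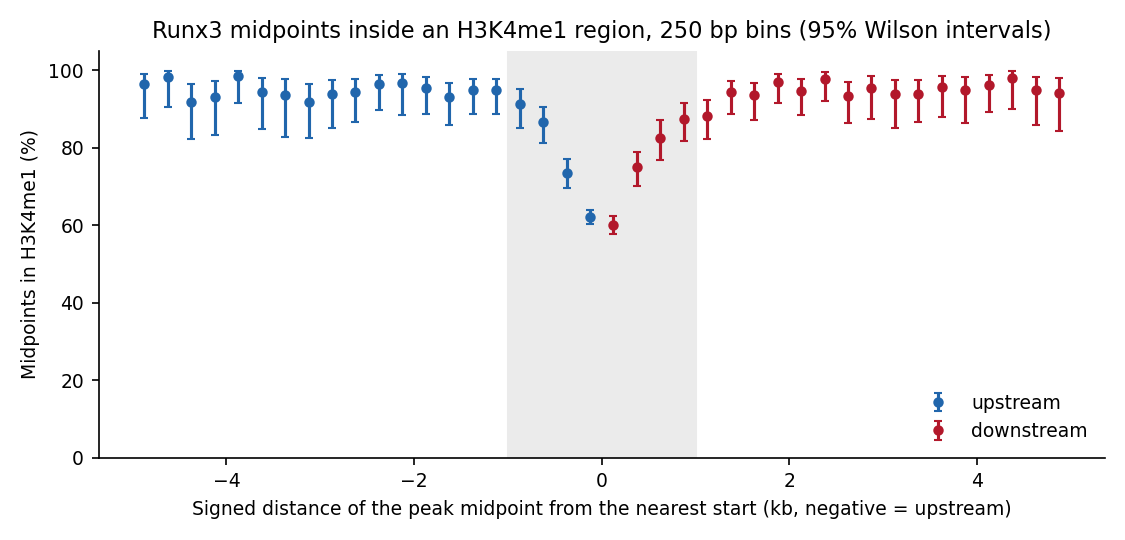
Share of Runx3 midpoints inside an H3K4me1 region (%) against the signed distance from the nearest start in kb, in 250 bp bins, with 95% Wilson intervals. The grey band marks distances under 1 kb, which are outside the class described. The share is lowest next to the start (62.2% and 60%) and lies above 88% in all bins from 1 kb outward.

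Where a peak sat inside its H3K4me1 region differed between the sides. Place in the region was scored from 0 (edge) to 1 (centre). The median place was 0.717 upstream (0.7 to 0.732, 1046 peaks) and 0.652 downstream (0.624 to 0.676, 1269 peaks), and these intervals did not overlap. With H3K4me1 regions within 1 kb of each other merged, the medians were 0.642 and 0.619 and their intervals overlapped. The regions themselves had a median width of 4700 bp upstream (4445 to 4952) and 5388 bp downstream (5021 to 5767). Region centres lay farther from the start than the midpoint for 55.2% of downstream peaks and 47% of upstream peaks (difference -8.13 points, -12.2 to -4.03). At 1 to 2 kb the shares were 63.8% downstream and 50.1% upstream (difference -13.7 points, -20.4 to -6.8). At 2 to 3 kb they were 53.6% and 44.5% (difference -9.07 points, -17 to -0.937), and at 3 to 4 kb 49.6% and 45.8% (difference -3.82 points, -12.7 to 5.18). Over all peaks from 2 kb outward they were 50.3% and 45.5%, with an interval that included 0 (-9.88 to 0.209). The difference was larger with other start sets, -15.9 points with protein-coding transcripts only (-20.3 to -11.3) and -17.4 points with 1 start per protein-coding gene (-22.2 to -12.4). At 1 to 2 kb these sets gave -21 and -22.4 points.

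The distances to the region edges give the position in bp. For downstream peaks at 1 to 2 kb, H3K4me1 ended a median of 1520 bp towards the start (1391 to 1732) and 2771 bp away from it (2351 to 3063). For upstream peaks at 1 to 2 kb the edges were 1843 bp (1741 to 2004) and 1904 bp away (1718 to 2092), with overlapping intervals. At 4 to 5 kb downstream the order of the medians was the other way, 3189.5 bp towards the start (2383 to 3504) and 2352.5 bp away from it (1897 to 2755), with overlapping intervals. Over all distances, H3K4me1 was present 3000 bp from the midpoint towards the start at 58.4% of upstream and 57.9% of downstream peaks. The median distance to the start was 2606 bp upstream and 2484 bp downstream, so for most peaks this point lay past the start. At 3000 bp on the far side H3K4me1 was present at 43.4% of upstream peaks (40.5 to 46.4) and 53% of downstream peaks (50.4 to 55.7). For downstream peaks the far side is mostly the body of the gene, since 78.8% of them lay inside a transcript that begins at their nearest start.

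**Figure D3:**
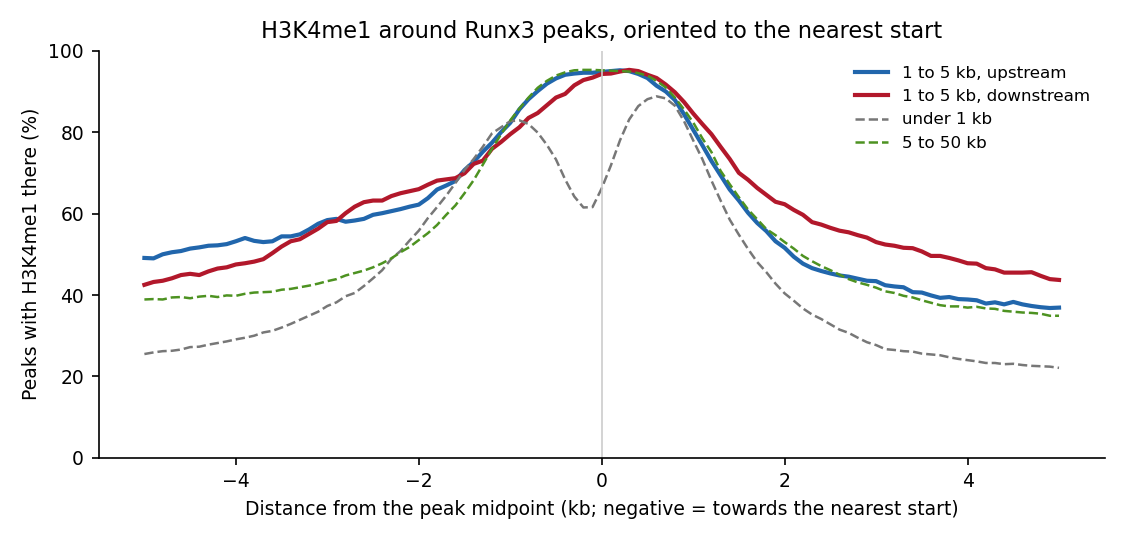
Share of peaks with H3K4me1 (%) at each distance from the peak midpoint in kb, with negative values towards the nearest start and positive values away from it, read every 100 bp. Solid lines are the 1103 upstream and 1346 downstream peaks at 1 to 5 kb. Dashed lines are the 6039 peaks under 1 kb whose midpoint was not exactly at a start and the 5662 peaks at 5 to 50 kb. The solid lines have no dip at 0, the line of peaks under 1 kb has one, and at 3000 bp on the far side the downstream line (53%) lies above the upstream line (43.4%).

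In 40.3% of these peaks the H3K4me1 region around the midpoint also held the nearest start, with 49% under 1 kb. At 5 to 50 kb the share was 5.93% (difference 34.4 points, 32.3 to 36.4). Median region widths were 5013 bp at 1 to 5 kb and 4638 bp at 5 to 50 kb. A region around a peak 5 kb or more out thus seldom spans the way to the start, so this difference largely restates the distance limits. A single H3K4me1 block running from peak to start was found more often upstream (44.1%) than downstream (37.2%, difference 6.84 points, 2.93 to 10.7). At 1 to 2 kb the shares were 59.8% and 46.7%, and at 4 to 5 kb 22.8% and 20.4%. The nearest start itself lay in some H3K4me1 region for 56.1% of the peaks, with 57.6% upstream and 54.8% downstream (difference 2.74 points, -1.21 to 6.67).

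The sides differed in the kind of sequence by the gene models, as the definition of the sides implies. Among downstream peaks 78.2% of midpoints lay in an intron, 10.9% in an exon and 10.8% outside genes, and 55.3% lay in the first intron of a transcript from their nearest start. Among upstream peaks 610 (55.3%) lay outside any gene. A further 329 (29.8%) lay upstream of an alternative start but inside the same gene, 66 in another gene of the same strand and 98 only in a gene of the opposite strand. Upstream peaks outside genes had their midpoint in H3K4me1 in 94.3% of cases and those in a gene in 95.5% (difference -1.28 points, -3.88 to 1.44). The H3K4me1 region held the start for 38.9% of the former and 50.5% of the latter (difference -11.7 points, -17.5 to -5.76). Most nearest starts, 1990 (81.3%), belonged to protein-coding genes, and 140 belonged to processed transcripts, 102 to pseudogenes and 65 to long intergenic RNAs.

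Peaks at this distance often had another Runx3 peak nearby. Another Runx3 midpoint lay within 5 kb of 51.3% of them. The share was 25.1% under 1 kb (difference 26.2 points, 23.9 to 28.5) and 31.7% at 5 to 50 kb (difference 19.7 points, 17.3 to 22). A further Runx3 peak sat at the start itself, under 1 kb from it, for 31.2%. For peaks at 5 to 50 kb this was 27.2% (difference 4 points, 1.84 to 6.18). By the limits of the class, a peak at the start mostly lies within 5 kb of the peak described. Where the start had its own peak, 98.3% had another midpoint within 5 kb, and where it had none, 30%. The value of 51.3% is therefore in part set by the distance limits. Counted over start positions, 678 of the 2214 starts of these peaks (30.6%) had such a peak, and 20.4% of all starts did. It was present for 33.3% of downstream and 28.6% of upstream peaks (difference -4.63 points, -8.28 to -0.949). With the closer limit of 500 bp from the start, the difference was -2.21 points and its interval included 0 (-5.56 to 1.17). For protein-coding starts the share was 34.9% and for the others 15.3%. Where the start had its own peak, the start lay in H3K4me1 in 64.7% of cases, against 52.2% where it had none (difference 12.5 points, 8.3 to 16.6). The share of peaks with both in 1 H3K4me1 region was 16.9% upstream and 13.4% downstream (difference 3.42 points, 0.57 to 6.31).

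The RUNX consensus was centred on the midpoints. At least 1 of these 4 RUNX hexamers on either strand was found in the central 200 bp of 72.8% of the peaks, beside 69.2% of all Runx3 peaks and 26.7% of the 1574677 windows of 200 bp that tile all sequence 1 to 5 kb from a start. Upstream and downstream peaks had 72.1% and 73.4% (difference -1.33 points, -4.88 to 2.2). Peaks under 1 kb had 61.5% (difference 11.3 points, 9.11 to 13.4), and peaks at 5 to 50 kb 74.2% (difference -1.36 points, -3.48 to 0.721). In the whole peak, with a median width of 810 bp, a match was present in 93.9%. This was 91.7% under 1 kb (difference 2.21 points, 0.988 to 3.35) and 94.6% at 5 to 50 kb (difference -0.773 points, -1.94 to 0.304). The share in other sequence of that width was not computed, and wider stretches hold a match more often. Within 50 bp on each side of the midpoint the density was 7.02 and 6.51 matches per kb upstream and 7.13 and 6.78 downstream, against 4.84 and 5.12 under 1 kb.

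**Figure D4:**
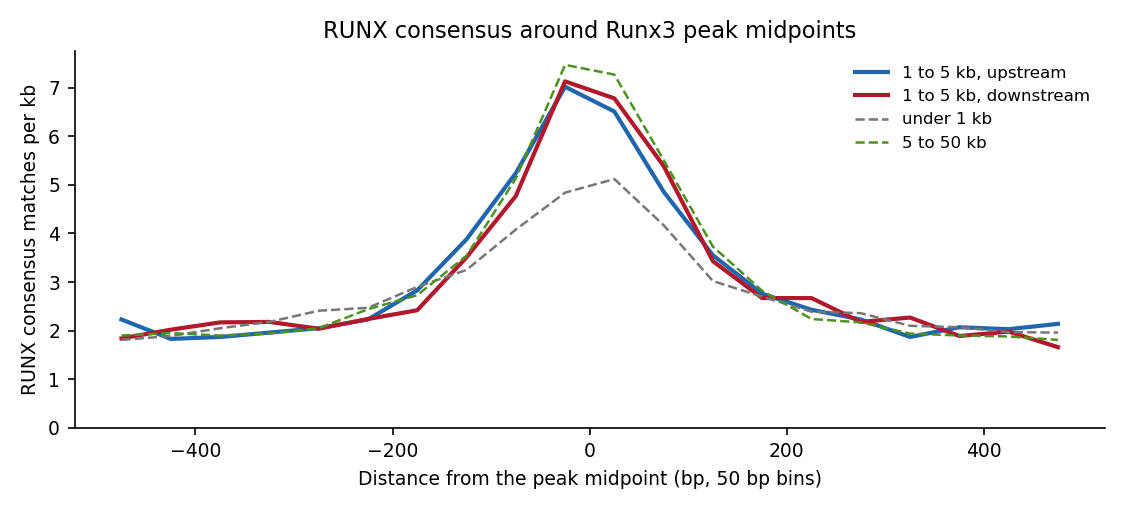
RUNX consensus matches per kb against distance from the peak midpoint in bp, in 50 bp bins along the plus strand. Solid lines are upstream and downstream peaks at 1 to 5 kb, and dashed lines are peaks under 1 kb and at 5 to 50 kb. Both solid lines rise to about 7 at the midpoint (7.02 and 7.13), above the line of peaks under 1 kb (4.84).

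Which variant was present set these peaks apart from those at promoters. TGTGGT was in the central 200 bp of 50.9%, against 21.4% under 1 kb (difference 29.5 points, 27.3 to 31.8). TGCGGC, which holds a CpG, was in 5.06% against 20.6% (difference -15.5 points, -16.8 to -14.1). TGCGGT was in 10.7% against 18.1%, and TGTGGC in 26.3% against 18.7%. The base composition moved with this. Median GC content was 49% in the central 500 bp of the peaks at 1 to 5 kb and 60.2% under 1 kb, and the median number of CpGs was 1.4 and 6.8 per 100 bp. Its part in the variant shares was not tested. Against peaks at 5 to 50 kb, TGTGGT was 3.55 points rarer (difference -3.55 points, -5.91 to -1.18) and TGCGGT 1.68 points more common (0.279 to 3.15). For each of the 4 variants the interval of the difference between the sides included 0, with TGTGGT at 51% and 50.9% (difference 0.0604 points, -3.91 to 4.03).

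Letters read by other factor families were searched in the same window on both strands, and motifs may share bases. AGGAAGT or CGGAAGT, read by ETS factors, was in 20.6% of the peaks and 5.24% of the tiled windows. It stood within 50 bp of a RUNX match in 9.23%. That share was 6.37% under 1 kb (difference 2.85 points, 1.6 to 4.2) and 9.98% at 5 to 50 kb (difference -0.751 points, -2.1 to 0.676). Whether the 2 motifs stood together more often than their separate shares imply was not tested. TGAGTCA or TGACTCA, read by AP-1, was in 7.1%, against 3.31% of the windows and 2.7% of peaks under 1 kb (difference 4.4 points, 3.36 to 5.55). GGTGTGA, read by T-box factors such as T-bet and Eomes, was in 7.02%, against 2.7% of windows and 3.46% under 1 kb (difference 3.56 points, 2.5 to 4.73). GGGCGG, read by SP1, was in 9.92%, against 2.39% of windows and 43.6% under 1 kb (difference -33.7 points, -35.4 to -31.9). At 5 to 50 kb the ETS share was 20.9% and the AP-1 share 7.29%. The intervals of these differences included 0 (-2.13 to 1.71 and -1.37 to 1.08). The T-box share there was higher, at 8.37% (difference -1.35 points, -2.56 to -0.0641), and the SP1 share lower, at 6.32% (difference 3.6 points, 2.3 to 4.99). Between the sides the ETS share was 21.2% upstream and 20.1% downstream (difference 1.08 points, -2.13 to 4.33), and the intervals for AP-1 (-2.09 to 2.03), T-box (-2.1 to 2) and SP1 (-0.8 to 4.01) also included 0. The tiled windows had a mean GC content of 43.4%. A match describes letters in a window and is not a bound site.

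A small group of 91 peaks had no H3K4me1 base. They were narrower, with a median of 659 bp (608 to 717) against 816 bp (805 to 826) in the 2358 peaks with H3K4me1. The ETS letters were in 6.59% and 21.2% of them (difference -14.6 points, -18.5 to -7.34), and the RUNX letters in 63.7% and 73.2% (difference -9.42 points, -19.8 to -0.103). Their nearest start lay in H3K4me1 in 25.3% and 57.3% (difference -32 points, -40 to -22). Another Runx3 midpoint was within 5 kb of 30.8% and 52.1% (difference -21.4 points, -30.1 to -11.1). The 29 peaks on the X chromosome had their midpoint in H3K4me1 in 79.3% (61.6 to 90.2), and RUNX letters were in 26 of them. On the single chromosomes the class made up between 12.2% and 19.7% of the Runx3 peaks.

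The genes next to these peaks were described with lists of lymphocyte and contrast genes. The lists were chosen with earlier results of these data known. Their shares are a description, and differences between them were not tested. Of 22350 protein-coding genes, 1601 (7.16%) owned the nearest start of at least 1 such peak. Of 181 annotated genes of the NK and lymphocyte lists 95 did (52.5%, 45.2 to 59.6), and of 55 genes of T cell, B cell, myeloid and non-immune lists 3 did (5.45%, 1.87 to 14.9). The share was highest for receptor adaptors and kinases (15 of 19) and lymphocyte transcription factors (30 of 51). It was 10 of 18 for cytotoxic granule and death ligand genes, 15 of 31 for NK cell receptors and 6 of 13 for cytokines and chemokines. Cytokine receptors and their signalling had 11 of 28, and trafficking and adhesion 8 of 21. No B cell gene (0 of 12, upper limit 24.2%) and no non-immune gene (0 of 18, upper limit 17.6%) owned one. High shares at the listed genes were not particular to this distance. A Runx3 peak under 1 kb was found at 14 of 19 receptor adaptors and kinases, 26 of 51 transcription factors and 14 of 18 granule and death ligand genes. It was found at 16 of 31 NK cell receptors, 6 of 13 cytokines and chemokines, 18 of 28 cytokine receptor genes and 14 of 21 trafficking genes. In the contrast lists it was found at 3 of 13 T cell, 0 of 12 B cell, 1 of 12 myeloid and 1 of 18 non-immune genes. Counted per start position and not per gene, 20.4% of all starts had a Runx3 peak under 1 kb. The share of all protein-coding genes with such a peak is not given here. The side of the peaks at 1 to 5 kb varied between the lists, beside 55% downstream over the whole class. NK cell receptors had 18 upstream and 9 downstream, cytotoxic granule and death ligand genes 7 and 5, cytokines and chemokines 3 and 4, and adaptors and kinases 10 and 14. Cytokine receptors and their signalling had 5 upstream and 14 downstream, trafficking and adhesion 4 and 8, and transcription factors 11 and 30. Differences in side between lists were not tested. Genes with more annotated starts have more sequence in this class. Among all genes with 1 start position 4.31% owned a peak and among those with 8 or more 13.9%, while listed genes with 1 start position had 48.3% and those with 8 or more 55%.

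**Figure D5:**
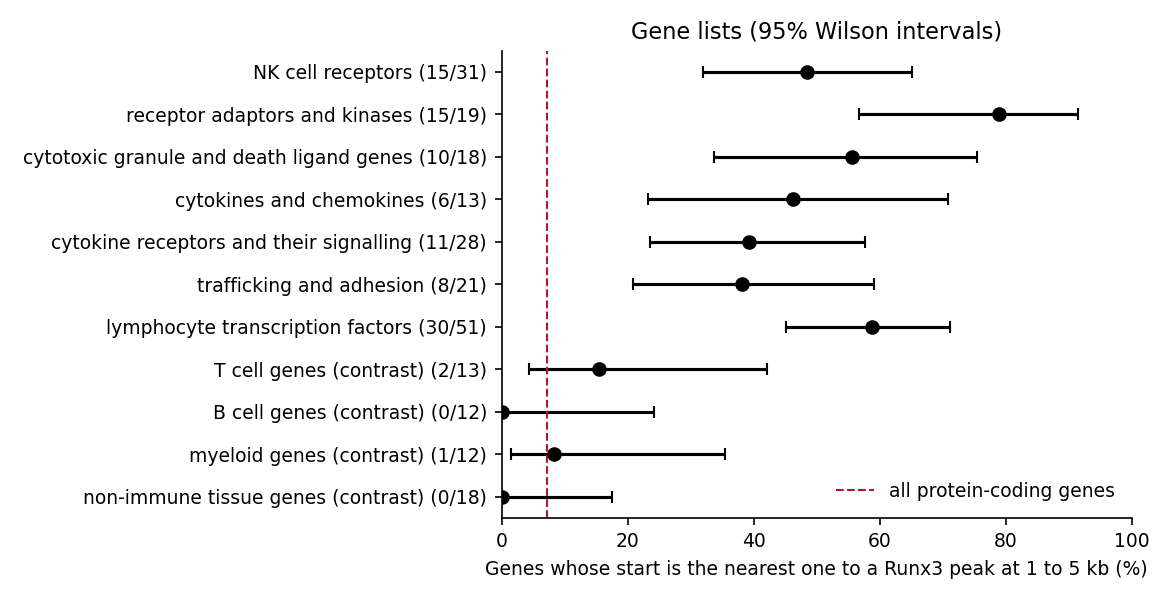
Share of the annotated genes of each list (%) that own the nearest start of a Runx3 peak at 1 to 5 kb, with 95% Wilson intervals and the counts beside the list names. The dashed line marks all protein-coding genes (7.16%). The lists were chosen with earlier results of these data known. The 7 NK and lymphocyte lists lie between 38.1% and 78.9%, and the 4 contrast lists between 0% and 15.4%.

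Among the receptors, Klrb1a, an NKR-P1 lectin-like receptor, owned 5 peaks between 1349 and 4930 bp from its start, 3 upstream and 2 in introns. All 5, and the start, lay in 1 H3K4me1 region of 13752 bp (chr6:128567543-128581294). Klrd1, which encodes CD94, the partner of the NKG2 receptors, owned 4. Its downstream peak lay in a region of 21346 bp that held the start, while of the 3 upstream peaks the nearest (chr6:129539061-129539902, 2318 bp) fell between regions and shared no base with H3K4me1. Klrb1c, which encodes NK1.1, owned 3, at 1645 and 4105 bp upstream and 4347 bp downstream. Fcgr3, which encodes the IgG receptor CD16, owned 2, both upstream of the start, in an intron of an annotated gene model and in the region that held the start. Some Klr genes are near-identical copies, and only uniquely aligned reads were used, so the number of peaks at each copy is uncertain.

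Among adaptor and kinase genes, Fyn, a Src family kinase, owned 4, each in an intron and downstream of one of its starts. The first lay 1380 bp from the start in a region of 51855 bp, at place 0.0713, and the widest (911 bp) in a region of 96856 bp. Plcg1, which encodes phospholipase C gamma 1, owned a pair 1015 and 2085 bp downstream in a region of 3409 bp, with 4 and 3 RUNX matches in the central 200 bp. Csk, the kinase that restrains Src kinases, had 1 peak 1204 bp upstream in the region that held the start and 1 in the first intron, 1828 bp downstream, in the next region. Ptpn6, which encodes SHP-1, a phosphatase recruited by inhibitory receptors, owned 2 upstream peaks, 1331 and 1636 bp from different starts within a region of 13776 bp.

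Among genes of the killing machinery, Nkg7, which encodes a granule membrane protein, had a peak 2119 bp upstream and another 1654 bp downstream, outside any annotated gene, and neither of the H3K4me1 regions held its start. Gzmm, a granule protease gene, had peaks 1682 bp upstream and 2021 bp downstream of its starts in 1 region of 13720 bp. Gzma, the granzyme A gene, had 1 peak 1043 bp upstream, and Ctsw, the cathepsin W gene, 1 in an intron 1202 bp downstream.

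Among the secreted factors, Ccl5, a chemokine gene, had peaks 3291 bp downstream and 4723 bp upstream, in separate H3K4me1 regions. Xcl1, the lymphotactin gene, had 1 peak in the first intron. The peak 1437 bp downstream of Tnf and the peak 2302 bp upstream of Ltb, which encodes lymphotoxin beta, lay in the same H3K4me1 region of 20442 bp (chr17:35319357-35339798). The Tnf peak had no RUNX match in its 975 bp, which says only that these letters are absent from that window.

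Among cytokine receptor and signalling genes, Smad3, a transducer of TGF-beta signals, owned 5, of which 4 lay in 1 region of 65870 bp. Il18r1, a chain of the IL-18 receptor, owned 2 in the first intron, 1596 and 4036 bp downstream, in the region that held the start. Il12rb1, a chain of the IL-12 receptor, had 1 upstream and 1 downstream in a region of 9647 bp, each with 1 RUNX match outside the central 200 bp. Ifngr1, a chain of the interferon gamma receptor, had 2 in the first intron, and its start lay outside their region of 9437 bp.

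Among genes of cell traffic, S1pr5, a sphingosine-1-phosphate receptor that guides NK cells out of tissues, had 1 peak on each side at 1841 and 1881 bp. The upstream peak lay in the region that held the start at place 0.694, and the downstream peak near the edge of the next region at place 0.0301. Selplg, which encodes the selectin ligand PSGL-1, had a like arrangement, with an upstream peak 2246 bp away at place 0.908 and a downstream peak 2347 bp away at place 0.0442 in another region. Ccr2, a chemokine receptor gene, had its 2 peaks, 1445 bp upstream and 1325 bp downstream, in 1 region of 18343 bp. Cd69, an early activation gene, had 1 peak in the first intron.

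Among transcription factor genes, Foxp1, a forkhead repressor gene, owned 3, all in the first introns of its transcripts and in regions that held the start. Klf13 owned 3 downstream, of which the nearest (1371 bp) shared no base with H3K4me1 and the next (2395 bp) had its midpoint at the very edge of a region of 42130 bp, at place 0.000617. Junb, an AP-1 gene, owned 3. Gata3, a factor of lymphoid development, had 1 peak 1066 bp upstream and 1 peak 1967 bp downstream, of different starts and both in introns. Runx3, Runx1, Tbx21, Ets1 and Fli1 were also among the 30 genes. The 3 contrast genes were the T cell genes Cd28 and Cd3d and the integrin gene Itgax, and the midpoint of the Cd3d peak was outside H3K4me1.

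Of the 1601 protein-coding genes that owned a peak of this class, 1310 owned 1, 227 owned 2 and 43 owned 3. The highest number was 7, at Tpst2, which encodes a protein-tyrosine sulfotransferase, and at Tnfaip8, a TNF-induced gene. All 7 midpoints at each gene lay in H3K4me1, spread over 3 regions. At Tpst2 5 of the 7 were upstream of one of its starts and at Tnfaip8 3. Elmo2, Acot7 and Fnbp1 were among the 9 genes with 5, and the 5 at Acot7 all lay in 1 region of 27025 bp. The widest upstream peaks were 8547 bp at Cwc22, a splicing factor gene, 2900 bp at Zfp36, which encodes the mRNA decay factor tristetraprolin, and 1995 bp at Cd9, a tetraspanin gene. The widest downstream were 6197 bp at AY036118, 4493 bp at Cd244, which encodes the NK cell receptor 2B4, and 3479 bp at A430078G23Rik. The Cwc22 and AY036118 peaks filled nearly the whole of their H3K4me1 regions of 8662 and 6914 bp.

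At the limits of the class, the closest peaks outside the lower limit lay 998 bp from starts of Gm13605 and Plscr2 and 999 bp from Gm9875, and the closest inside it 1001 bp from starts of Pdcd7, Aff1 and Ankrd12. At the upper limit the last inside lay 4993 bp from Syp, 4995 bp from Pank1 and 4997 bp from Slc41a2, and the first outside 5000 bp from Pgs1 and 5001 bp from Tab2. Of these peaks, the one at Syp had its midpoint outside H3K4me1. The class depends on the annotation. With the starts of protein-coding transcripts only, 1786 of the 2449 (72.9%) stayed within 1 to 5 kb, and with 1 start per protein-coding gene 1370 (55.9%).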

How the data were processed

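The authors sequenced 40 bp reads, aligned them with ELAND (CASAVA 1.7 per the submitters' processing notes) to mm9, kept unique alignments, joined biological repeats and called regions with MACS against NIS. The labels describe 1 experiment per antibody, and which reads entered each list could not be read from it. The deposited values are region coordinates (chromosome, start, end), with 0 filled columns beyond a name. Chromosome lengths matched mm9. Coordinates are 1-based.

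Each midpoint was assigned to its nearest start. Shares have Wilson, their differences Newcombe, densities exact Poisson and medians order-statistic 95% intervals. Differences between the sides are upstream minus downstream, and those between distance classes are the 1 to 5 kb peaks minus the other class. A difference was called where its interval left out 0 or, for medians, where the 2 intervals did not overlap. No p-value was computed. The census does not account for sequence to which 40 bp reads cannot be aligned uniquely. Python 3.11.15, numpy 2.4.6, pandas 2.3.3, scipy 1.17.1 and statsmodels 0.14.6 were used, and the functions were tested on simulated data.

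The members, lists and comparisons were chosen with earlier results of these data known, and the splits by other peaks at the start, by gene overlap and by number of starts were added after the values were seen. Named genes were up to 4 per list with the most peaks (ties by distance), the 3 widest peaks per side, the 5 genes with the most peaks (ties also by the distance of the nearest peak) and the peaks next to each limit. Runx3, Runx1, Tbx21, Ets1 and Fli1 were named in addition. Syk and Spi1 had no annotation match under these symbols. Alternatives were other start sets, 1 peak per gene, a distance of at least 2 kb, wider peaks, merged H3K4me1 regions and a 400 bp window.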

Additional observations from a re-analysis of the deposited data

How the results depend on the processing

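Of 55 alternative values for 16 results, 38 kept their direction and their side of the call. For 9 the sign changed, with neither value called. H3K4me1 overlap by side was 0.435 points with no other start within 5 kb on the far side, 0.577 in wider peaks and 0.8 with most of the peak covered. Midpoints in H3K4me1 by side differed by -0.278 points with protein-coding transcripts and -0.268 points at 2 kb or more. The RUNX share by side differed by 0.224 points in wider peaks and 0.422 in whole peaks, and the width by -8.5 bp at 2 kb or more. Midpoints in H3K4me1 differed by 0.246 points from peaks at 5 to 50 kb with protein-coding transcripts. The upstream share below the census was -2.27 points at 2 kb or more, no longer called. There the difference in region centre was -4.85 points, also not called. With H3K4me1 regions within 1 kb of each other merged, the difference in place was 0.0226 and its intervals overlapped. For a further peak at the start, the difference was -2.21 points with a 500 bp limit and -3.89 points with 1 peak per gene, neither called. With 1 start per protein-coding gene, midpoints in H3K4me1 differed by 3.03 points between the sides, and the peaks differed by -2.11 points from those at 5 to 50 kb, both now called. With protein-coding transcripts only, the RUNX share differed by -5.43 points between the sides, called. The causes were not tested. With only 1 sample per antibody, none of the intervals covers variation between mice or libraries. No paired analysis was possible because the labels give no replicate numbers.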
